A study of Mus musculus with 12 samples.

Results

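The mitochondrially encoded genes are the 37 genes of the mouse mitochondrial genome, a circle of 16299 bases listed as chrM, among 54446 genes in the RNA-seq tables. They were chosen as all genes whose symbol begins with mt-, and comprise 13 genes for proteins, 2 for ribosomal RNAs and 22 for transfer RNAs. Of these, 15 had reads, namely the 13 coding genes and both rRNAs, and the 22 tRNA genes were listed at 0 in both libraries.

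The study examined the Paf1 complex, a transcription elongation factor, in 2 mouse cell lines. RNA-seq was made from 1 library of E14 mouse embryonic stem cells (mESCs, pluripotent cells of the early embryo) and 1 library of NIH3T3 cells, an established line of embryonic fibroblasts. For ChIP-seq, chromatin bound by a protein or carrying a histone mark was pulled down and sequenced, and 7 peak lists were used here, 1 library each. In mESCs these were Ctr9-GFP, NELFA-GFP, RNAPII Ser5p, RNAPII Ser2p and H3K27ac, and in NIH3T3 cells Ctr9-GFP and H3K27ac. Both lines grew in the same medium, GMEM with serum and LIF, and neither received a treatment in these libraries. Ctr9 carried GFP at its C-terminus in a sorted pool of knock-in cells of each line, not in single clones, and RNAPII Ser5p was pulled down from the cells with GFP-tagged NELFA. The labels of the RNA-seq libraries name the cell line only, so whether those cells carried a tag is not given in the sources used here.

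Mitochondrial DNA is transcribed by its own polymerase, Polrmt, with Tfam and Tfb2m, from both strands into long precursors. The tRNAs lie between most of the mRNAs and rRNAs, and their excision releases the single transcripts, which the Lrpprc and Slirp proteins help to keep stable. All proteins made from these mRNAs are subunits of the respiratory chain and the ATP synthase, and the remaining subunits of those complexes come from nuclear genes.

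The estimated counts, the reads that kallisto assigned to each transcript, summed to 26400407 in mESCs and 28849497 in NIH3T3 cells. TPM are transcript levels corrected for length and set to the same total in each library. With 1 library per line there was no replicate and no test, and each 95% interval covers counting error only. The intervals treat reads as independent molecules, which PCR reads are not. They also leave out the error of assigning reads between transcripts of shared sequence, so they can be too narrow. The defining markers matched the cell line labels. Pou5f1 stood at 1402 TPM in mESCs and was listed at 0 in NIH3T3 cells, Col1a1 at 0.203 and 901 TPM, and all 10 markers were higher in the line they mark. Nuclear protein-coding genes at 10 TPM or more in both libraries (5018 genes) had a median log2 ratio of mESC over NIH3T3 of 0.13, so a mitochondrial gene with equal TPM in both lines lay 0.13 below the nuclear median.

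Mitochondrially encoded genes took a larger share of the NIH3T3 library. In mESCs 541916 estimated counts fell on them, 2.05% of the library (exact Clopper-Pearson interval, 2.05% to 2.06%). In NIH3T3 cells the number was 826962, or 2.87% (2.86% to 2.87%), 1.40 times the share in mESCs (1.39 to 1.40). By TPM, the share was 4.93% in mESCs and 6.97% in NIH3T3 cells. Summed over the 13 coding genes, the mESC library had 48606 TPM and the NIH3T3 library 68127 TPM, a ratio of mESC to NIH3T3 of 0.713, and 0.653 relative to the nuclear median. In such bulk samples, fewer mitochondria per cell and less RNA per mitochondrion cannot be told apart, nor can either be told from more nuclear RNA per cell.

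Each of the 15 genes with reads had a higher value in NIH3T3 cells, by CPM (estimated counts scaled to the library total) and by TPM. For 14 of them the interval of the ratio lay above 1, and for mt-Atp8, with few reads, it included 1. Past 2-fold, on the scale of log2(TPM + 1), were 3 genes, mt-Rnr1, mt-Nd1 and mt-Nd3, all higher in NIH3T3 cells. This is 20% of the 15, and 20.6% of all 14691 genes with at least 1 TPM in either library were 2-fold higher in NIH3T3 cells. No mitochondrial gene was 2-fold higher in mESCs, where the share over all genes was 24.9%. The median log2 ratio of mESC over NIH3T3 was −0.46 over the 15 genes, with a range from −1.998 to −0.15, and 0.14 over all genes tested.

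Some of these genes were among the most abundant in either library. mt-Atp6 had the highest TPM of all 54446 genes in both lines, and 5 of the 10 genes with the highest TPM in mESCs and 7 of the 10 in NIH3T3 cells were mitochondrial. Among the top 50 genes, 9 were mitochondrial in each line. The levels of the 13 mRNAs spanned from 42.4 to 12810 TPM in mESCs and from 56.4 to 15242 TPM in NIH3T3 cells, although 12 of them are cut from transcripts of one strand.

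**Figure D1:**
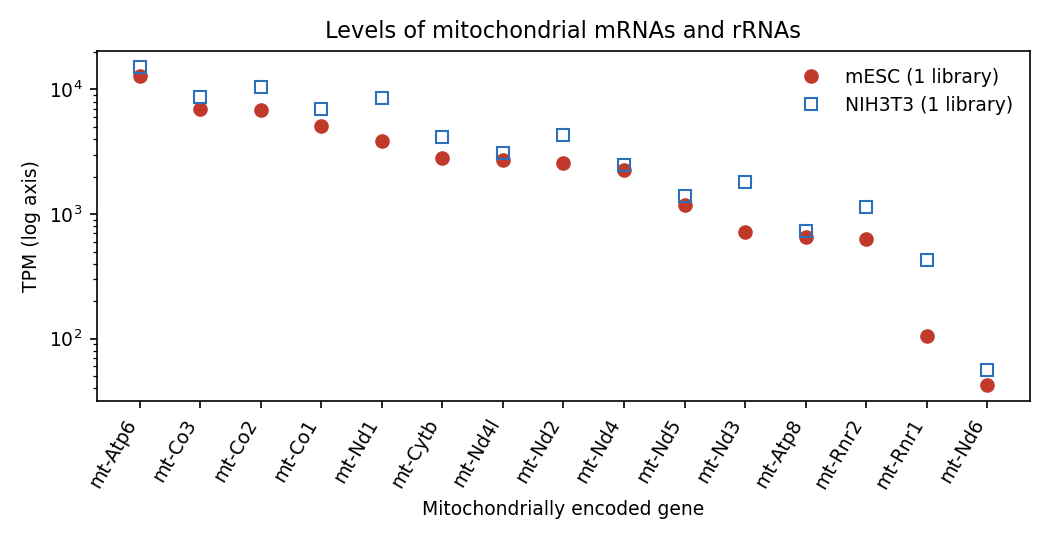
TPM (log axis) of the 13 mitochondrial mRNAs and 2 rRNAs in the mESC library (filled circles) and the NIH3T3 library (open squares), ordered by the level in mESCs. Every gene is higher in NIH3T3 cells, mt-Atp6 is the highest in both at 12810 and 15242 TPM, and mt-Nd6 is the lowest at 42.4 and 56.4 TPM.

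The order of the 13 mRNAs was nearly the same in both lines. Spearman's rho between the libraries was 0.967 across the 13 genes, which share their precursors and are not independent, and 4 of the 13 had the same rank. In mESCs the order by TPM was mt-Atp6, mt-Co3, mt-Co2, mt-Co1, mt-Nd1, mt-Cytb, mt-Nd4l, mt-Nd2, mt-Nd4, mt-Nd5, mt-Nd3, mt-Atp8 and mt-Nd6. In NIH3T3 cells mt-Co2 came before mt-Co3, mt-Nd1 before mt-Co1, mt-Nd2 before mt-Cytb and mt-Nd4l, and mt-Nd3 before mt-Nd5. With the TPM of its nuclear copy added, mt-Nd3 stood at 2365 and 4831 TPM, before mt-Nd5 in both lines. Without replicates, no spread is known against which neighbours in this order could be judged.

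Of the RNAs of the mitochondrial ribosome, 1 had the highest ratio between the lines of all genes with reads. mt-Rnr1, the 12S rRNA of the small subunit (chrM:70-1024), had 1280 estimated counts in mESCs and 5683 in NIH3T3 cells, or 106 and 425 TPM. Its ratio of NIH3T3 over mESC in CPM was 4.06 (3.82 to 4.32). mt-Rnr2, the 16S rRNA of the large subunit (chrM:1094-2675), had 13323 and 26369 estimated counts, or 630 and 1139 TPM, with a ratio of 1.81 (1.77 to 1.85).

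The TPM of mt-Rnr2 was thus 5.97 times that of mt-Rnr1 in mESCs and 2.68 times in NIH3T3 cells, although both rRNAs come from one precursor. Together the rRNAs took 0.0553% of the mESC library and 0.111% of the NIH3T3 library, and 2.69% and 3.88% of the counts on mitochondrial genes. The labels give total RNA as the extracted molecule, the study calls the libraries mRNA sequencing, and how mRNA was selected is not given in the sources used here. The part of that selection in the rRNA values, in those of the mitochondrial mRNAs and in the library shares was not tested.

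Complex I (NADH dehydrogenase) takes electrons from NADH, and 7 of its subunits are mitochondrially encoded. Their estimated counts made up 0.576% of the mESC library and 0.884% of the NIH3T3 library, a ratio of 1.53 (1.52 to 1.54), the highest of the 4 complexes with mitochondrial subunits. Among its members were genes with a high and genes with a low ratio.

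mt-Nd1 (chrM:2751-3707), a subunit of the membrane arm at the quinone site, had 41935 estimated counts in mESCs and 98576 in NIH3T3 cells, or 3842 and 8516 TPM, and a ratio of 2.15 (2.13 to 2.18). mt-Nd2 (chrM:3914-4951), another membrane arm subunit, had 31705 and 57017 counts, or 2577 and 4342 TPM, and a ratio of 1.65 (1.62 to 1.67). mt-Nd3 (chrM:9459-9806) had 2136 and 5861 counts, or 724 and 1825 TPM, and a ratio of 2.51 (2.39 to 2.64). These 3 were the complex I subunits that differed most between the lines, and the value of mt-Nd3 depends on a nuclear copy described further on.

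mt-Nd4 (chrM:10167-11544) and mt-Nd5 (chrM:11742-13565), the large proton-pumping subunits, were close to equal. mt-Nd4 had 40731 and 48681 estimated counts, or 2244 and 2495 TPM, and its ratio of 1.09 (1.08 to 1.11) was the lowest of the 15. mt-Nd5 had 29907 and 37866 counts, or 1184 and 1394 TPM, and a ratio of 1.16 (1.14 to 1.18). mt-Nd4l (chrM:9877-10173), which overlaps mt-Nd4 by 7 bases and shares its mRNA, had 5322 and 6517 counts, or 2741 and 3086 TPM, and a ratio of 1.12 (1.08 to 1.16). The TPM of mt-Nd4l was 1.22 times that of mt-Nd4 in mESCs and 1.24 times in NIH3T3 cells. Per kilobase of full length the factor was 0.606 and 0.621, so its direction rests on the length correction. mt-Nd4l is 297 bases long and kallisto gave it an effective length of 98.0 bases.

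mt-Nd6 (chrM:13552-14070, minus strand) is the 1 coding gene of the light strand and the lowest mRNA in both lines. It had 272 estimated counts in mESCs and 398 in NIH3T3 cells, or 42.4 and 56.4 TPM, with a ratio of 1.34 (1.14 to 1.57). By TPM it ranked 2461 and 1730 among all genes. Its neighbour on the other strand, mt-Nd5, overlaps it by 14 bases and stood 27.9 times higher in TPM in mESCs and 24.7 times in NIH3T3 cells. The labels call the library protocol strand-specific, and whether kallisto used the strand is not given in the sources used here. Reads of mt-Nd6 and of the opposite strand at its place therefore cannot be told apart. The part of the mRNA selection in the low level of mt-Nd6 was not tested.

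Complex III passes electrons to cytochrome c, and its cytochrome b, mt-Cytb (chrM:14145-15288), is its sole mitochondrially encoded subunit. It had 44808 estimated counts in mESCs and 70111 in NIH3T3 cells, or 2830 and 4132 TPM, and a ratio of 1.43 (1.41 to 1.45). It lies last on the heavy-strand transcript and did not share the low ratios of mt-Nd4 and mt-Nd5 before it.

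Complex IV (cytochrome c oxidase) reduces oxygen to water, and its 3 mitochondrial subunits form the catalytic core. They held the largest part of the mitochondrial counts, 45.1% in mESCs and 43.5% in NIH3T3 cells. mt-Co1 (chrM:5328-6872) had 118508 and 175179 estimated counts, or 5074 and 6990 TPM, and a ratio of 1.35 (1.34 to 1.36). With the reads of its nuclear copies, described further on, added, the ratio of mt-Co1 was 1.30 (1.29 to 1.31), outside that interval. mt-Co2 (chrM:7013-7696), which takes electrons from cytochrome c, had 55510 and 90817 counts, or 6869 and 10543 TPM, and a ratio of 1.497 (1.48 to 1.51). mt-Co3 (chrM:8607-9390) had 70181 and 93762 counts, or 7014 and 8768 TPM, and a ratio of 1.22 (1.21 to 1.23). The complex holds these subunits in equal numbers, and their mRNAs lay within 1.38-fold of each other by TPM in mESCs and 1.51-fold in NIH3T3 cells.

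Complex V, the ATP synthase, has 2 mitochondrial subunits, and their shares differed least between the lines, 0.327% and 0.382% of the libraries, a ratio of 1.17 (1.16 to 1.18). mt-Atp6 (chrM:7927-8607), part of the proton channel, had 86062 estimated counts in mESCs and 109837 in NIH3T3 cells, or 12810 and 15242 TPM, and a ratio of 1.17 (1.16 to 1.18). With the reads of its nuclear copy added, the ratio of mt-Atp6 was 1.156 (1.146 to 1.167). mt-Atp8 (chrM:7766-7969), a small subunit of the membrane part, had 236 and 289 counts, or 654 and 737 TPM, and a ratio of 1.12 (0.940 to 1.34). Both are read from 1 mRNA in overlapping frames over 43 bases, shown here with the start codon of mt-Atp6 and the stop codon of mt-Atp8 in capitals (chrM:7927-7969, plus strand, GRCm38).
mt-Atp8 and mt-Atp6 overlap: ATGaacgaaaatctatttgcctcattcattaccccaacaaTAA
Although they share an mRNA, mt-Atp6 had 19.6 times the TPM of mt-Atp8 in mESCs and 20.7 times in NIH3T3 cells. Per kilobase of full length the factor was 109 and 114. mt-Atp8 is 204 bases long and kallisto gave it an effective length of 18.2 bases, so its level relative to other genes rests on that length correction, whereas its ratio between the lines does not.

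The transfer RNAs were not measurable in these libraries. The 22 genes, 14 on the heavy and 8 on the light strand, are mt-Tf, mt-Tv, mt-Tl1, mt-Ti, mt-Tq, mt-Tm, mt-Tw, mt-Ta, mt-Tn, mt-Tc, mt-Ty, mt-Ts1, mt-Td, mt-Tk, mt-Tg, mt-Tr, mt-Th, mt-Ts2, mt-Tl2, mt-Te, mt-Tt and mt-Tp. All were listed at 0, which allows up to 3 counts, or 0.114 CPM in mESCs and 0.104 in NIH3T3 cells. They are 59 to 75 bases long, and kallisto gave them effective lengths of 3.27 to 3.59 bases. The shortest, mt-Ts2 (chrM:11613-11671), a serine tRNA, and the longest, mt-Tl1 (chrM:2676-2750), a leucine tRNA between mt-Rnr2 and mt-Nd1, are shown as DNA of the plus strand of GRCm38 to give their size.
mt-Ts2: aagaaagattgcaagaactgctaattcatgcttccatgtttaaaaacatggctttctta
mt-Tl1: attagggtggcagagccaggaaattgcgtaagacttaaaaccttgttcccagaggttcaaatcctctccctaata
Nothing about tRNA levels in either line can be read from the zeros.

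Along the heavy strand, the genes nearest the start of transcription had mostly larger ratios than those after mt-Co2. The 4 mRNAs from mt-Nd1 to mt-Co2 had ratios of NIH3T3 over mESC from 1.35 to 2.15, with a median of 1.57. The 7 from mt-Atp8 to mt-Nd5 had ratios from 1.09 to 2.51, and without mt-Nd3 from 1.09 to 1.22. No separate rule set the cut after mt-Co2, so the groups are a description of these same ratios. mt-Cytb, which lies after mt-Co2 with a ratio of 1.43, is in neither group. Across the 14 heavy-strand genes with reads, Spearman's rho between the start position and the log2 ratio of mESC over NIH3T3 was 0.631, and 0.476 across the 12 mRNAs. The points come from the same pair of libraries and from shared precursors, and mt-Nd3 and mt-Cytb lie away from the order.

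**Figure D2:**
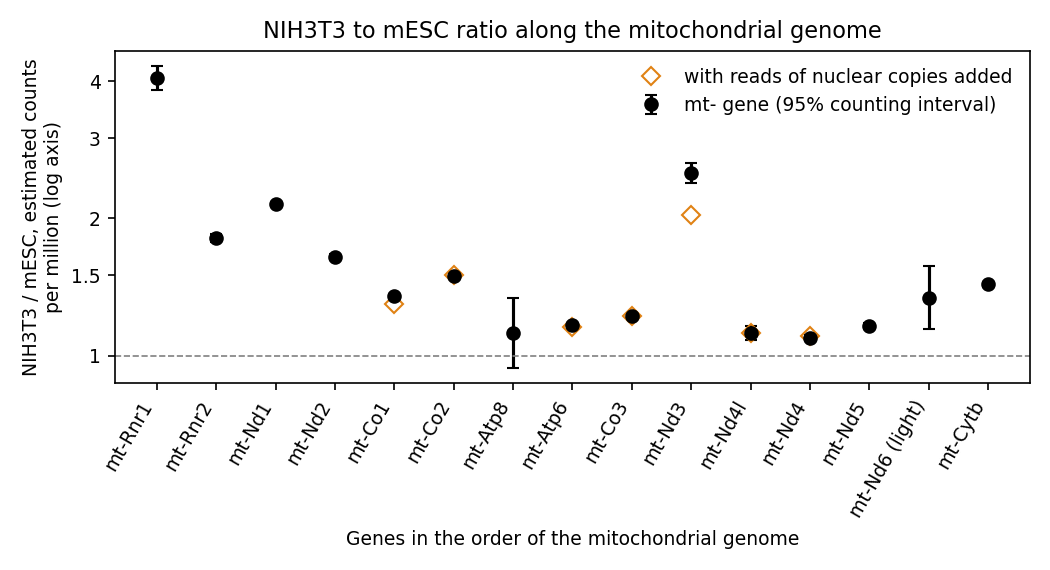
Ratio of NIH3T3 over mESC in CPM (estimated counts scaled to the library total, log axis) for the 15 genes in the order of the mitochondrial genome, with 95% counting intervals, 1 library per line. The ratio is highest for mt-Rnr1 at 4.06 and lowest for mt-Nd4 at 1.09, and adding the reads of nuclear copies (diamonds) lowers mt-Nd3 from 2.51 to 2.04.

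Copies of mitochondrial DNA in the nuclear genome, annotated as pseudogenes, share reads with these genes. The 9 copies examined lie on chromosome 1 (7 copies within chr1:24611535-24616197) and chromosome 2 (2 copies within chr2:22587291-22589647). Of the chromosome 1 copies, 5 are identical to their mitochondrial gene over the whole copy, namely Gm28661 (mt-Co2), Gm28437 (mt-Co3), Gm10925 (mt-Atp6), Gm10222 (mt-Nd4l) and Gm28439 (part of mt-Nd4). Stretches of 31 bases that also occur in other transcripts make up 100% of mt-Co2, 99.9% of mt-Co3, 99.5% of mt-Atp6, 98.9% of mt-Nd4l, 98.1% of mt-Nd3, 63.9% of mt-Co1 and 62.8% of mt-Nd4. mt-Nd1 and mt-Rnr1, which are past 2-fold, have none.

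kallisto gave the copies 17220 reads in mESCs and 19099 in NIH3T3 cells, equal to 3.18% and 2.31% of the counts on mitochondrial genes. Most of the identical copies received few. Gm28437 and Gm10222 had none or less than 1 read, Gm28661 had 5.56 and 110, Gm10925 had 1211 and 454, and Gm28439 had 2229 and 3193. Gm29216, a part of mt-Co1, had 8931 and 5755 reads, 7.01% and 3.18% of the reads of the pair. On chromosome 2, Gm13340 (mt-Co1) had 31.2 and 47.3 reads and Gm13341 (mt-Co2) 66.5 and 84.6.

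Gm28438, the copy of mt-Nd3, was the exception, with 4746 estimated counts in the mESC and 9454 in the NIH3T3 library, making up 69.0% and 61.7% of the reads of the pair. By TPM it stood at 1641 and 3005, above mt-Nd3 itself. It differs from mt-Nd3 by T3C, counted from 1 at the 5′ end of the transcript (position 9461 of chrM), and 312 of its 315 stretches of 31 bases are shared. The first 40 bases of both are shown with that base in capitals, mt-Nd3 from chrM:9459-9498 (plus strand) and Gm28438 from chr1:24613080-24613119 (minus strand) of GRCm38.
mt-Nd3: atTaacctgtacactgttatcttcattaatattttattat
Gm28438: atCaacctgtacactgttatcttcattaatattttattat
Together, mt-Nd3 and Gm28438 had 6882 and 15315 reads, a ratio of 2.04 (1.98 to 2.10), so the gene stayed past 2-fold with its copy added. The locus from which these reads came was not tested, and the base that either cell line carries at that position was not examined.

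**Figure D3:**
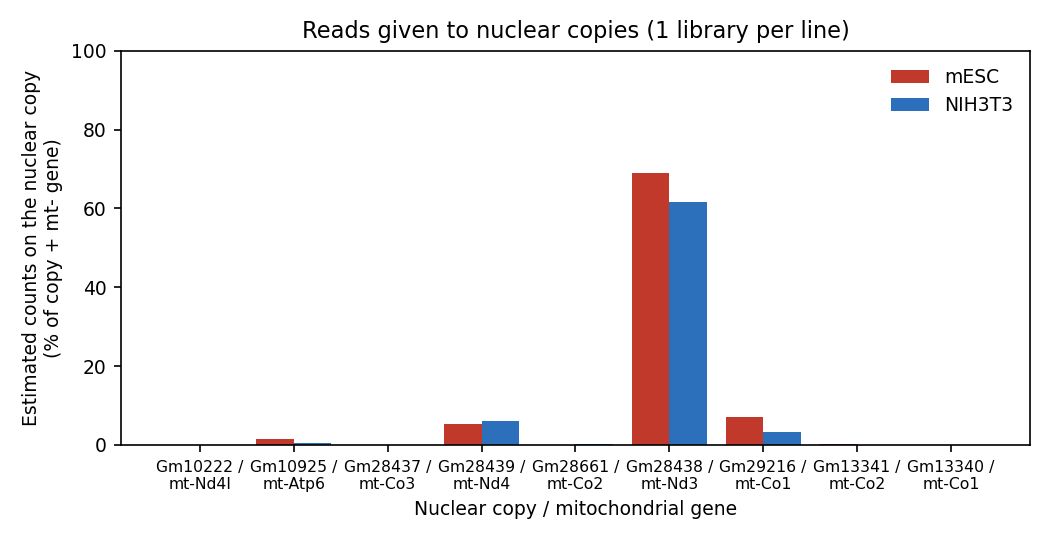
Percent of the estimated counts of each pair (nuclear copy plus mitochondrial gene) that were given to the nuclear copy, in the mESC and the NIH3T3 library. Gm28438 took 69.0% and 61.7% of the reads shared with mt-Nd3, and no other copy took more than 7.01%.

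Peaks on chrM were found in 1 of the 7 ChIP-seq lists, that of H3K27ac in mESCs, which held 2 among 19417. Mitochondrial DNA is packed by Tfam and carries no nucleosomes. The first peak, chrM:65-3645, spans 3581 bases and meets mt-Tf, mt-Rnr1, mt-Tv, mt-Rnr2, mt-Tl1 and mt-Nd1. Its summit lies at position 1996 in mt-Rnr2, with a fold enrichment over the local background of 1.66 and a −log10 q of 16.04. The second, chrM:12088-16203, spans 4116 bases and meets mt-Nd5, mt-Nd6, mt-Te, mt-Cytb, mt-Tt and mt-Tp. Its summit at position 12747 in mt-Nd5 had a fold enrichment of 1.47 and a −log10 q of 9.09.

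Both stood apart from the rest of the list in shape. They were its widest peaks, where the median width was 412 bases, and their fold enrichment was lower than that of 99.9% of the peaks, with a median of 3.97. Together they covered 47.2% of chrM. The 8442 bases between them, with 25 genes of which 9 code for proteins, held no peak.

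The stretch between the peaks is also the one that the nuclear genome copies most. Of its stretches of 31 bases, 67.0% occur in the 21 nuclear chromosomes, against 5.66% in the first peak, 20.9% in the second and 41.1% over all of chrM. The GC content was 36.4% in the first peak, 36.4% between the peaks and 38.1% in the second. The list of H3K27ac in mESCs also held 110 peaks on 22 unplaced sequences, whereas the other lists held 1 to 26. The part of shared sequence, or of this library, in the chrM peaks was not tested.

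No peak lay on chrM in the lists of Ctr9-GFP, with 44748 peaks in mESCs and 22016 in NIH3T3 cells, nor in those of NELFA-GFP (1980), RNAPII Ser5p (4490), RNAPII Ser2p (1675) or H3K27ac in NIH3T3 cells (34241). No list had a peak within 1 kb of the nuclear copies. The authors removed reads in blacklisted regions before peak calling, and whether the copies lie in such regions was not examined. Depth is unknown for peak lists without read counts, and a missing peak does not show that no reads lay there.

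Nuclear genes that transcribe, process and translate mitochondrial RNA, or supply other respiratory subunits, were compared in the same way. They were taken from lists that are not complete. Of 249 such genes at 1 TPM or more in either line, 33 (13.3%) were 2-fold higher in mESCs and 7 (2.81%, or 4 genes with TPM summed over transcripts) in NIH3T3 cells, against 23.9% and 20.0% of all 12371 nuclear protein-coding genes. Their median log2 ratio of mESC over NIH3T3 was 0.34 (0.21 relative to the nuclear median), that of all nuclear protein-coding genes 0.13, and the 12 lists each had a median above 0. The mitochondrially encoded genes lay on the other side of 0, at −0.46. The shares of 23.9% and 20.0% over all nuclear protein-coding genes also apply to the counts of each list below. Each nuclear TPM was that of the highest transcript in each library, so a 2-fold call need not hold for the gene over all transcripts.

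For transcription of mitochondrial DNA, 3 of 10 genes were 2-fold higher in mESCs and none in NIH3T3 cells, against 23.9% and 20.0% of all nuclear protein-coding genes. The median was 0.81. The polymerase Polrmt had 10.6 TPM in mESCs and 8.67 in NIH3T3 cells, a log2 ratio of 0.26. Tfam, which packs the DNA and starts transcription, had 54.5 and 30.1 TPM (0.83), and Tfb2m, which opens the promoter, 19.2 and 23.4 TPM (−0.27). The largest differences were in Tfb1m, the enzyme that methylates the 12S rRNA, with 23.3 and 3.96 TPM (2.29), and Mterf2, a protein that binds mitochondrial DNA, with 10.2 and 3.00 TPM (1.48). Mterf3, a repressor of mitochondrial transcription, had 14.1 and 14.4 TPM (−0.02).

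For replication and upkeep of the DNA, 3 of 12 genes were 2-fold higher in mESCs and none in NIH3T3 cells, against the same 23.9% and 20.0%. The median was 0.80 (0.49 with TPM summed over transcripts). The polymerase Polg had 10.5 and 8.72 TPM (0.25) and the helicase Twnk 16.6 and 15.3 TPM (0.11). The exonuclease Mgme1 had 19.2 and 3.62 TPM (2.13) and the primase-polymerase Primpol 8.03 and 2.95 TPM (1.19). The lowest ratios were those of the mitochondrial topoisomerase Top1mt, with 6.45 and 11.4 TPM (−0.74), and Polg2, the accessory subunit of Polg, with 2.47 and 3.70 TPM (−0.44).

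For RNA processing and stability, 4 of 33 genes were 2-fold higher in mESCs and none in NIH3T3 cells, with a median of 0.62. Lrpprc had 76.4 and 64.0 TPM (0.25) and its partner Slirp 80.4 and 71.9 TPM (0.16). Fastkd2, which binds the 16S rRNA, had 37.9 and 13.8 TPM (1.39), and Ptcd2 29.8 and 12.8 TPM (1.16). Trnt1, which adds CCA to tRNAs, had 35.2 and 55.2 TPM (−0.64), and the oligoribonuclease Rexo2 59.8 and 80.9 TPM (−0.43).

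Translation factors had 3 of 13 genes higher in mESCs and none in NIH3T3 cells, against the same 23.9% and 20.0%, with a median of 0.54. The release factor Mtrf1 had 19.5 and 2.64 TPM (2.49), the recycling factor Gfm2 19.4 and 4.45 TPM (1.90), Taco1, an activator of mt-Co1 translation, 6.76 and 9.72 TPM (−0.47), and Guf1 8.42 and 8.69 TPM (−0.04). Of 17 mitochondrial tRNA synthetases, 5 were higher in mESCs and 1 in NIH3T3 cells, with a median of 0.48. Tars2, for threonine, had 22.2 and 7.70 TPM (1.42) and Cars2, for cysteine, 19.04 and 7.19 TPM (1.29). Wars2, for tryptophan, had 1.71 and 5.04 TPM (−1.16), and Lars2, for leucine, 101 and 138 TPM (−0.45).

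Of the proteins of the mitochondrial ribosome, 8 of 78 were higher in mESCs and 5 in NIH3T3 cells, with a median of 0.17 (0.044 relative to the nuclear median). Mrpl24 had 40.7 and 5.78 TPM (2.62) and Mrpl45 52.5 and 17.2 TPM (1.56). Mrps6 had 29.3 and 103 TPM (−1.78) and Mrpl54 33.0 and 95.1 TPM (−1.498). Among 7 regulators of mitochondrial biogenesis at 1 TPM or more, 2 were higher in mESCs and none in NIH3T3 cells, with a median of 0.87 (0.46 with TPM summed over transcripts). The factor Nrf1 had 17.7 and 5.80 TPM (1.46), Ppargc1b 2.61 and 0.259 TPM (1.52), the receptor Esrra 7.77 and 7.51 TPM (0.04) and Gabpb1 19.6 and 22.2 TPM (−0.18). Over all its transcripts, Nrf1 had 1747 and 1131 estimated counts, a smaller difference than in its highest transcript. Ppargc1a, a coactivator of biogenesis in tissues with many mitochondria, had 0 and 6.67 estimated counts and passed the filter in neither line.

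Of 37 nuclear genes listed by name for complex I, without Ndufab1, 1 was 2-fold higher in each line, with a median of 0.17 (0.042 relative to the nuclear median). The gene higher in mESCs was Ndufa4l2, with 13.2 TPM in mESCs and listed at 0 in NIH3T3 cells. It is a relative of Ndufa4, a protein since assigned to complex IV. No other gene of the list was 2-fold higher in mESCs. Ndufa5 had 48.3 and 118 TPM (−1.28), and 541 and 911 estimated counts over all its transcripts. Ndufs6 had 134 and 66.9 TPM (0.99) and Ndufa12 54.4 and 89.0 TPM (−0.70). The 7 mitochondrial complex I subunits had log2 ratios from −1.33 to −0.15.

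Complex II has no mitochondrially encoded subunit. Of its 4 genes, 1 was 2-fold higher in mESCs, Sdha, with 133 and 58.9 TPM (1.16), followed by Sdhc with 366 and 244 TPM (0.58), Sdhd with 96.1 and 77.7 TPM (0.30) and Sdhb with 86.9 and 76.7 TPM (0.18). For complex III, none of 9 passed 2-fold, with a median of 0.48, from Uqcrc1 at 163 and 82.3 TPM (0.97) and Uqcrfs1 at 114 and 61.9 TPM (0.87) to Uqcr11 at 240 and 317 TPM (−0.40) and Uqcrq at 131 and 196 TPM (−0.58).

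For complex IV, 3 of 12 were higher in mESCs and none in NIH3T3 cells, against 23.9% and 20.0% of all nuclear protein-coding genes. This list runs from Cox5a to Cox8c and lacks Cox4i1. The median was 0.48 (0.23 over all 16 genes without the filter). Cox6b2, the testis form of Cox6b, had 60.8 and 0.396 TPM (5.47), while Cox6b1 had 253 and 284 TPM (−0.16). Cox7a1, the heart and muscle form, had 10.1 TPM in mESCs and was listed at 0 in NIH3T3 cells, and Cox7a2l, which joins complexes III and IV, had 219 and 251 TPM (−0.20). For complex V, none of 17 passed 2-fold, with a median of 0.20 (0.076 relative to the nuclear median), from Atp5o at 198.8 and 101 TPM (0.98) and Atp5a1 at 566 and 313 TPM (0.85) to Atp5g3 at 227 and 261 TPM (−0.20) and Atp5d at 138 and 205 TPM (−0.56).

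**Figure D4:**
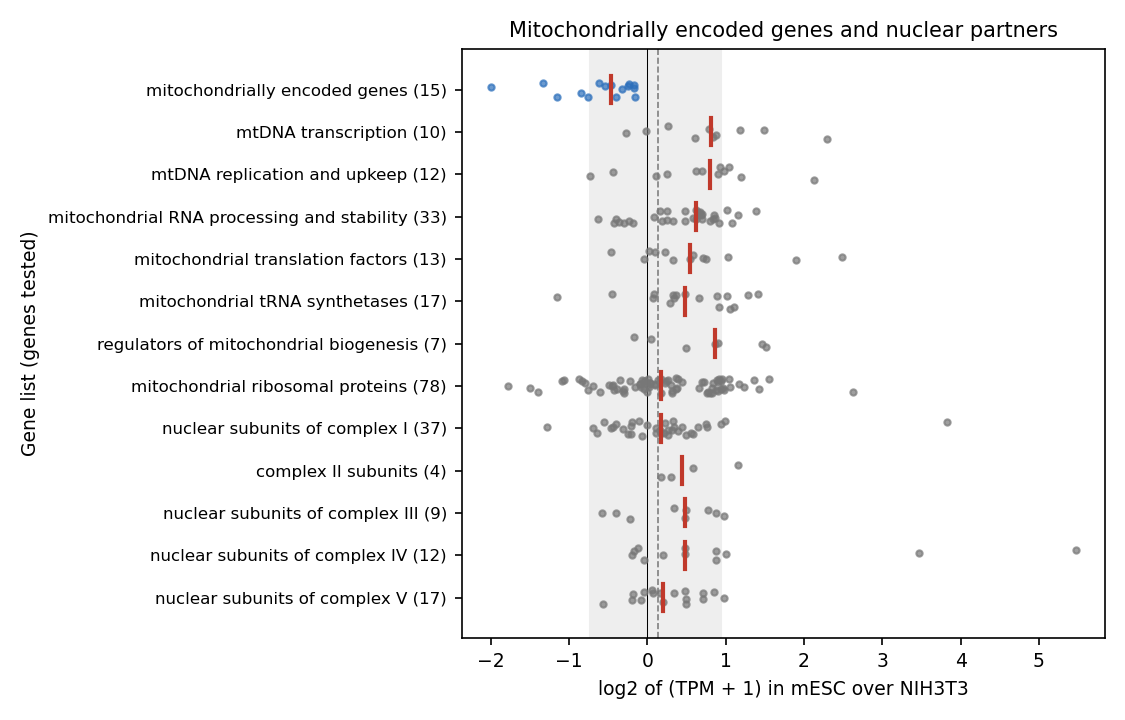
Log2 of (TPM + 1) in mESC over NIH3T3 for the 15 mitochondrially encoded genes with reads (top row) and 12 lists of nuclear genes (number of genes tested in brackets), 1 point per gene, with red bars at the medians. The dashed line (0.13) and the grey band are the median and the quartiles of all 12371 nuclear protein-coding genes, and the mitochondrial genes have a median of −0.46 whereas all 12 nuclear lists have one above 0.

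Unlike chrM, these nuclear genes often carried peaks, counted from 1 kb upstream to 5 kb downstream of the gene. In mESCs, Ctr9-GFP peaks lay at 223 of the 249 genes (89.6%, against 68.7% of 12379 genes at 1 TPM or more that GENCODE M21 calls protein-coding) and H3K27ac peaks at 233 (93.6%, against 67.5%). NELFA-GFP peaks lay at 65 genes (26.1%, against 17.1%), RNAPII Ser5p peaks at 63 (25.3%, against 21.0%) and RNAPII Ser2p peaks at 30 (12.0%, against 11.2%). In NIH3T3 cells, Ctr9-GFP peaks lay at 108 (43.4%, against 40.7%) and H3K27ac peaks at 242 (97.2%, against 85.1%). For Ser5p and Ser2p in mESCs and Ctr9 in NIH3T3 cells, the shares were near those of all genes. The comparison was not matched for expression level, with which the study found Ctr9 binding to rise. The window can also take in peaks of neighbouring genes.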

How the data were processed

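RNA-seq reads were quantified by the authors against GENCODE M19 with kallisto 0.46.1, and the deposited tables give estimated counts and TPM for 137767 transcripts. They aligned ChIP-seq reads to mm10 with Bowtie2 2.3.5.1, removed blacklisted regions and called peaks per library with MACS2 2.2.6. In the deposited peak lists, fold enrichment is a ratio over the local background, the −log10 p and −log10 q belong to the summit, and the score is 10 times the −log10 q. Of 12 samples, 9 had a file and 3 were inputs, not used here.

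From these files, each gene took the TPM of its highest transcript, and ratios were computed as log2(TPM + 1) for genes at 1 TPM or more in either library. Intervals for shares were exact Clopper-Pearson, and those for ratios of rounded estimated counts exact conditional binomial, both at 95%. The code for ratios and 2-fold calls was tested on simulated data. Coordinates came from GENCODE M21 and sequences from RefSeq, both GRCm38. Python 3.11.15, pandas 2.3.3, NumPy 2.4.6, SciPy 1.17.1 and Matplotlib 3.10.9 were used. The genes and lists were chosen with earlier results of these data known. Named were all mitochondrially encoded genes and their nuclear copies, the 2 highest and 2 lowest ratios of each nuclear list, and 10 regulators whatever their values (Polrmt, Tfam, Tfb2m, Mterf3, Lrpprc, Slirp, Polg, Twnk, Ppargc1a and Nrf1). In all, 20 alternatives were planned and 4 added after seeing the data.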

Additional observations from a re-analysis of the deposited data

How the results depend on the processing

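No paired analysis was possible because each line had 1 library, and no replicate could be left out. The same 3 genes were past 2-fold under the 5 alternatives of that count. At their TPM the pseudocount and the filter had little weight. Taking values relative to the nuclear median moves all mitochondrial genes further toward NIH3T3 cells. These settings could therefore not have removed a gene, unlike the count scale. The added nuclear copies could have removed only mt-Nd3, because mt-Rnr1 and mt-Nd1 have no copy among those examined. With the 13 coding genes only, the count share was 2.00% in mESCs and 2.76% in NIH3T3 cells, and the TPM share 4.86% and 6.81%. With the annotated nuclear copies added, the count share was 2.12% and 2.93%, also with every pseudogene sharing 31 bases (an alternative chosen after seeing the data), and the TPM share 5.32% and 7.41%. The mESC to NIH3T3 ratio of the coding TPM was 0.725 by count shares, 0.653 relative to the nuclear median, 0.698 with TPM rescaled over nuclear genes and 0.722 with the copies added. Spearman's rho between the libraries was 0.995 per kilobase and 0.918 with the copies added (also chosen after seeing the data). The TPM of a copy is scaled to its own length, so partial copies weigh more in the TPM values with copies added than in counts. Gm29216, 492 bases long, had 7.01% of the reads of its pair in mESCs, but 1780 TPM beside 5074 TPM of mt-Co1. Relative to the nuclear median, 15 genes had an interval above 1. With TPM summed over transcripts, 4 nuclear genes in place of 7 were 2-fold higher in NIH3T3 cells, and the cause was not tested. The 33 genes higher in mESCs became 23 relative to the nuclear median, 41 with a pseudocount of 0.1 and 32 with summed transcripts. The median log2 ratio of the nuclear genes was 0.36 with summed transcripts, 0.35 with a pseudocount of 0.1, 0.21 relative to the nuclear median and 0.33 without a filter. Among mitochondrial genes with reads, mt-Atp8 and mt-Nd6 had the fewest reads and the widest counting intervals.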
